A study of Mus musculus with 6 samples.

Results

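Sterol and fatty acid synthesis genes were followed in corneal epithelial cells by bulk RNA-seq. The group held 34 genes taken by symbol, all of which were among the 17784 genes listed. It was divided into 17 enzymes of the sterol arm (*Acat2*, *Hmgcs1*, *Mvk*, *Pmvk*, *Mvd*, *Idi1*, *Fdps*, *Fdft1*, *Sqle*, *Lss*, *Tm7sf2*, *Msmo1*, *Nsdhl*, *Hsd17b7*, *Ebp*, *Sc5d* and *Dhcr7*), 5 regulators (*Srebf1*, *Srebf2*, *Scap*, *Insig1* and *Stard4*) and 12 enzymes of the fatty acid arm (*Acly*, *Acss2*, *Acaca*, *Acacb*, *Fasn*, *Scd1*, *Scd2*, *Elovl1*, *Elovl5*, *Elovl6*, *Fads1* and *Fads2*). The choice of these genes used no measured value, although earlier results of these data were known when it was made.

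The samples were 3 from *Prrx1-CreERT;Ptch1 f/f* mice, labelled KO, and 3 from control mice, labelled WT, which the study names *Ptch1 f/f*. For all mice the labels give 10 weeks of age and 3 doses of tamoxifen with a term of 2 months. The 10 weeks was read here as the age at induction, which the study puts at 2 months. The floxed allele was on a C57BL/6 background. *Prrx1-CreERT* is an inducible recombinase of keratocytes, the fibroblasts of the corneal stroma, and of other mesenchymal cells of the eye including the corneal endothelium. *Ptch1*, the Hedgehog receptor that restrains the pathway, was therefore not deleted by design in the epithelial cells sequenced here. The study separated epithelium from stroma with EDTA for qPCR, and its sequencing methods do not say how the epithelial cells were isolated. The question was how epithelial transcripts differ when Hedgehog signalling is switched on in the stroma beneath.

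Cells build cholesterol from acetyl-CoA through mevalonate, farnesyl diphosphate, squalene and lanosterol. Fatty acid synthesis starts from the same acetyl-CoA, which is carboxylated and extended, and the chains are then elongated and desaturated. Both arms are controlled by the SREBP transcription factors. SREBP precursors leave the endoplasmic reticulum with the escort Scap when sterols are low and are held back by Insig proteins when sterols are plentiful. SREBP-2, from *Srebf2*, acts mainly on sterol genes, and SREBP-1c, from *Srebf1*, mainly on fatty acid genes. In stratified epithelia both classes of lipid serve membranes and the surface barrier, and very long chains are also used by the meibomian glands of the lid for the tear film.

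Levels are given as CPM, which are counts scaled to the TMM-adjusted size of each library, and as TPM, which is scaled also for gene length, where genes are compared with each other. Libraries held 20296741 to 20625813 counts, and the floor of 3 counts stood at 0.142 to 0.152 CPM. *Ptch1* itself was at 25.3, 32.2 and 33.4 CPM in the WT samples and 19.1, 21.8 and 23.0 CPM in the KO samples, which is no check of a deletion directed at other cells. KO replicate 1 stood apart on the first principal component (56.7% of the variance), at 53.8 against 19.2 and 20.03 for the other KO samples and -34.9 to -27.4 for the WT samples. Of 12999 genes tested with edgeR's quasi-likelihood test, 1822 (14.0%) passed, which here means a p of 0.05 or less after Benjamini-Hochberg adjustment, and 420 of these also differed at least 2-fold (3.23%).

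The sterol and fatty acid genes passed the test about as often as other genes. Of the 34 genes, 4 passed, or 1 higher in KO (7.61% of all tested genes passed in that direction) and 3 lower (6.41% of all tested genes). The 4 were the desaturase *Fads1*, the sterol reductases *Tm7sf2* and *Dhcr7*, all lower in KO, and the ketosteroid reductase *Hsd17b7*, higher in KO. The WT and KO samples did not overlap for 7 genes, or 2 higher and 5 lower in KO, where over all tested genes the share was 39.9% (19.7% higher and 20.3% lower). No member differed 2-fold. The 95% interval of the fold change lay within 2-fold in either direction for 30 members and within 1.5-fold for 19. Because these are bulk samples, fewer cells of a type and less RNA per cell cannot be told apart. In the group as a whole 22 fold changes were above 0 and 12 below, with a median log2 fold change of 0.10, against -0.01 and 48.5% above 0 over all tested genes.

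**Figure D1:**
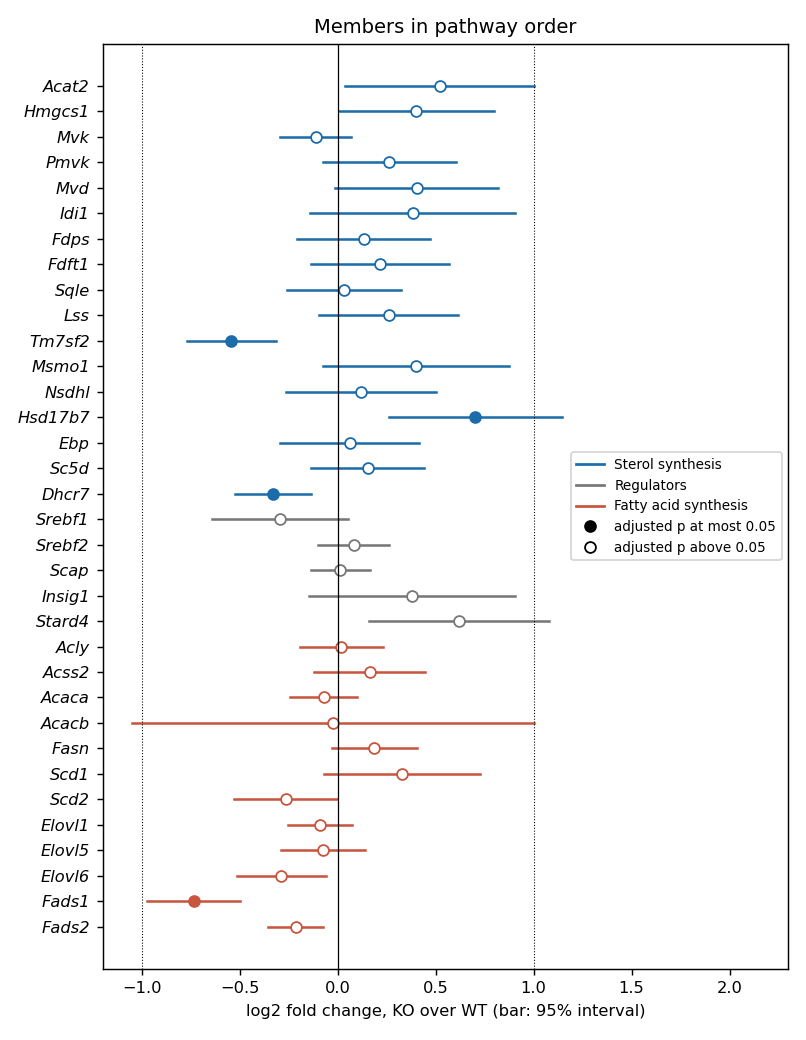
Log2 fold change of KO over WT for the 34 genes in pathway order, with 95% intervals as bars. Filled points had an adjusted p of at most 0.05 and dotted lines mark 2-fold. The 4 filled points are *Tm7sf2*, *Hsd17b7*, *Dhcr7* and *Fads1*, between -0.73 and 0.70, and the widest bar is that of *Acacb*.

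The promoters of these genes are shown because the sterol response element, the site of SREBP proteins, and the CCAAT box of their partner factor NF-Y define this group in textbooks. Windows of RefSeq promoters (GRCm38.p6, 250 bases before to 50 after a start) matched 27 of the 34 genes in 34 windows. No window was given for *Fdps*, *Fdft1*, *Sqle*, *Stard4*, *Scd1*, *Scd2* and *Fads1*. The letters TCACNCCAC, searched on both strands, were found in 1 window (2.94%), that of *Hmgcs1*, against 1.11% of the windows of tested genes. CCAAT, also on both strands, was found in 23 of 34 windows (67.6%) against 37.9% of the windows of tested genes. By arm, CCAAT was in 13 of 17 sterol windows (76.5%), 4 of 7 regulator windows (57.1%) and 6 of 10 fatty acid windows (60%). The letters of an E-box, CACGTG, were in 7 windows (20.6%, against 9.72%) and those of a GC box, GGGCGG on either strand, in 25 (73.5%, against 60.4%). Matches of different motifs can overlap, as where ATTGG runs into GGGCGG, and each was then counted. A match describes letters in a window and not a bound site.

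Of the sequences below, *Hmgcs1* is shown as the window with the sterol response letters, *Hsd17b7* as the sterol gene that rose and *Fasn* as the fatty acid synthase of the other arm, the latter pair chosen after their values were seen. All lie upstream of the annotated start and outside exons, at chr13:119690151-119690350 on the plus strand, chr1:169969242-169969405 on the minus strand and chr11:120824548-120824747 on the minus strand. Capitals mark TCACNCCAC and CCAAT or its reverse complement ATTGG, and in *Fasn* the run CCAATTGG holds CCAAT and ATTGG overlapping.
Hmgcs1: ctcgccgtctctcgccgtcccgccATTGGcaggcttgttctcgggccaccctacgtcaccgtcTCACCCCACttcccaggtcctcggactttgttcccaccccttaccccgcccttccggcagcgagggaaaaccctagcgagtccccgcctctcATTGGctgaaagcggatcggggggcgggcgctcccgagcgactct
Hsd17b7: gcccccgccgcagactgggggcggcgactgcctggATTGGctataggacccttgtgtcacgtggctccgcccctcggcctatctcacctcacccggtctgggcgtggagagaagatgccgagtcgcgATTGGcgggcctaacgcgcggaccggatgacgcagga
Fasn: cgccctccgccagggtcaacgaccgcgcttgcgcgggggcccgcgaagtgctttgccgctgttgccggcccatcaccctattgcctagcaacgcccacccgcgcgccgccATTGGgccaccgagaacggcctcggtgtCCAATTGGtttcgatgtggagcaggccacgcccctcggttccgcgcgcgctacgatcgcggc

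In the sterol arm, 14 of 17 log2 fold changes were above 0 and 3 below, with a median of 0.22 and a range from -0.54 to 0.70. By the test 1 gene rose and 2 fell, where over all tested genes 7.61% rose and 6.41% fell, and for the other 14 a difference was not detected. *Hsd17b7*, which reduces the ketone left after demethylation of lanosterol derivatives, was at 55.9, 37.8 and 38.5 CPM in the WT samples and 87.2, 68.5 and 59.5 CPM in the KO samples. Every KO sample was above every WT sample, and WT replicate 1 was the closest to the KO range. Its log2 fold change was 0.70 (SE 0.190, adjusted p = 0.0489). The call was close to the threshold and was lost without WT replicate 2 (0.60, adjusted p = 0.169), WT replicate 3 (0.61, 0.126), KO replicate 1 (0.54, 0.0951) or KO replicate 2 (0.73, 0.0900).

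*Tm7sf2*, a sterol reductase acting on the double bond that remains after the first demethylation, was at 37.2, 39.3 and 31.4 CPM in the WT samples. It was at 25.5, 24.8 and 23.8 CPM in the KO samples, a narrow band below all WT samples. It fell by 0.54 on the log2 scale (SE 0.0976, adjusted p = 0.0179). Without WT replicate 1 the adjusted p was 0.0543 and without WT replicate 2 it was 0.0803, at log2 fold changes of -0.52 and -0.48. Of its annotated 50-base stretches, 9.87% were shared on the same strand with the neighbour *Vps51*, whose log2 fold change was -0.25 (adjusted p = 0.104), and the part of shared reads in the *Tm7sf2* value was not tested.

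*Dhcr7*, the reductase that makes cholesterol from its dehydro precursor, was at 114.9, 119.7 and 112.3 CPM in the WT samples. In the KO samples it was at 88.1, 102.8 and 85.0 CPM, again without overlap. It fell by 0.33 on the log2 scale (SE 0.0836, adjusted p = 0.0413), or to 0.795 of the WT level (95% interval 0.695 to 0.910). The call held without KO replicate 2. It was lost when any other sample was left out, with adjusted p values of 0.0980 and 0.146 without WT replicates 1 and 2, 0.0811 without WT replicate 3, and 0.0845 and 0.0894 without KO replicates 1 and 3.

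At the entry to the mevalonate pathway, *Acat2*, the cytosolic thiolase, was at 75.3, 66.3 and 72.3 CPM in WT and 134.6, 102.0 and 70.2 CPM in KO. KO replicate 1 was highest and KO replicate 3 lay inside the WT range, and the log2 fold change was 0.52 (adjusted p = 0.128). Without KO replicate 3 it was 0.73 (adjusted p = 0.0263). Of its 50-base stretches, 39.1% were shared with the paralog *Acat3*, which stood at a mean of 0.192 CPM in WT and 0.745 in KO, and 11.2% with *Tcp1* on the opposite strand, so the split of reads among them is uncertain.

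*Hmgcs1*, the HMG-CoA synthase, was at 674.6, 461.9 and 491.5 CPM in WT and 826.3, 727.5 and 596.9 CPM in KO. The lowest KO sample was below WT replicate 1, so that the groups overlapped, and the log2 fold change was 0.40 (SE 0.170, adjusted p = 0.145). *Hmgcs1* shared 10% of its 50-base stretches with *Gm48342* on the opposite strand. Among the kinases and the decarboxylase of mevalonate, *Mvk* had a log2 fold change of -0.11 (adjusted p = 0.347), *Pmvk* 0.26 (0.243) and *Mvd* 0.40 (0.160). *Idi1*, the isomerase of isopentenyl diphosphate, was at 39.7, 22.7 and 23.2 CPM in WT and 41.5, 38.9 and 31.2 CPM in KO (log2 fold change 0.38, adjusted p = 0.272). Here WT replicate 1 lay within the KO range and above the other WT samples, and without it the log2 fold change was 0.69 (adjusted p = 0.0429). Of the 50-base stretches of *Idi1*, 17.7% were shared with *Gm13502*.

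From farnesyl diphosphate to lanosterol no gene passed the test. *Fdps*, which makes farnesyl diphosphate, was at 361.1, 348.3 and 342.2 CPM in WT and 472.1, 376.3 and 304.1 CPM in KO, so that the KO samples lay on both sides of a tight WT group (log2 fold change 0.13, adjusted p = 0.564). Without KO replicate 1 its log2 fold change was -0.04. Of its 50-base stretches 23.4% were shared with *Gm43738* and 12.1% with *Gm3571*, and of those of *Fdft1* 17.2% were shared with *Ctsb* on the opposite strand, so that these values are uncertain to that extent. *Fdft1*, the squalene synthase, and *Lss*, which closes the rings to lanosterol, had log2 fold changes of 0.22 and 0.26 (adjusted p = 0.356 and 0.270). *Sqle*, the squalene epoxidase and a rate-controlling step, was at 393.4, 342.4 and 313.0 CPM in WT and 398.9, 371.6 and 301.4 CPM in KO. The *Sqle* ranges almost coincided, and the log2 fold change of 0.03 had a 95% interval from -0.26 to 0.32.

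Among the enzymes after lanosterol, *Msmo1*, the methylsterol oxidase, was at 271.9, 174.1 and 177.9 CPM in WT and 333.7, 261.2 and 227.2 CPM in KO, with WT replicate 1 inside the KO range (log2 fold change 0.40, adjusted p = 0.214). *Nsdhl*, which removes the oxidised methyl carbon, was at 106.3 to 109.4 CPM in WT and 89.3 to 148.8 CPM in KO (log2 fold change 0.12, adjusted p = 0.648). *Ebp*, the sterol isomerase, had a log2 fold change of 0.06 (adjusted p = 0.810), and *Sc5d*, the desaturase before *Dhcr7*, 0.15 (0.423). Without KO replicate 1 the values of *Nsdhl* and *Ebp* were -0.09 and -0.13. The fold changes of the reductases *Tm7sf2* and *Dhcr7* lay below 0, next to enzymes of the pathway whose estimates lay above 0.

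The sterol genes differed among samples of one group as well as between groups. WT replicate 1 was the highest WT sample for 13 of the 17 genes, KO replicate 1 the highest KO sample for 15, and KO replicate 3 the lowest KO sample for all 17. Over all tested genes these samples held those places for 35.3%, 40.9% and 31.8% of genes. The ratio of the highest to the lowest sample had a median of 1.26 in WT and 1.38 in KO over the sterol genes, against 1.12 and 1.15 over the 7124 tested genes with a mean of at least 20 CPM. For the fatty acid genes it was 1.14 and 1.25.

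**Figure D2:**
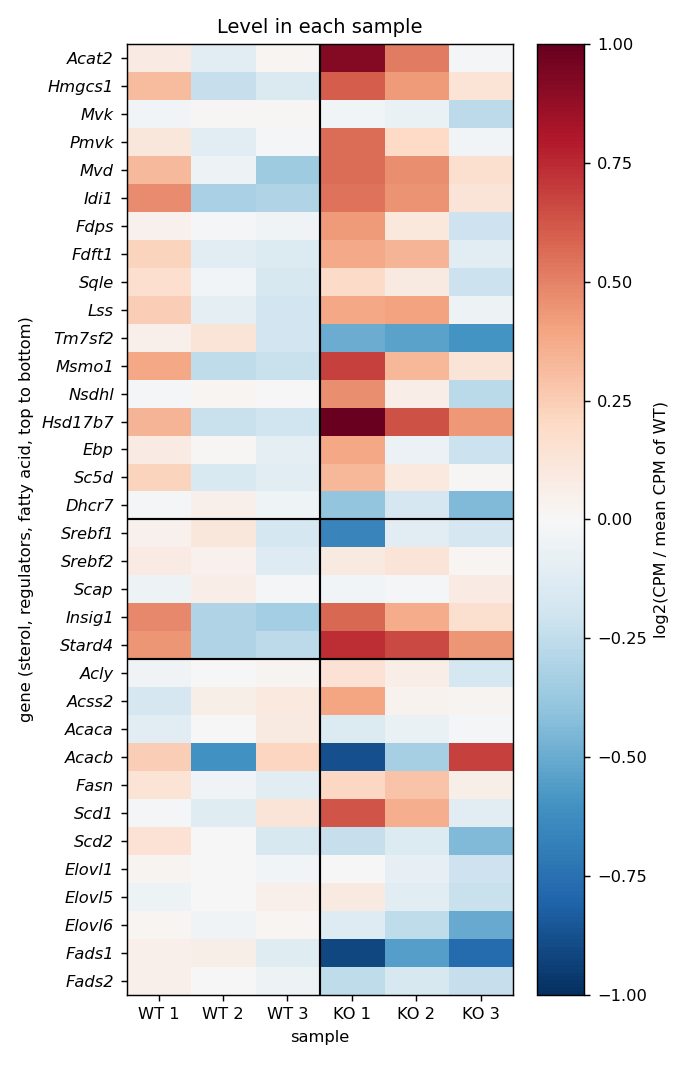
Level of each gene in each sample, as log2 of its CPM over the mean CPM of the WT samples, with red above and blue below that mean. Black lines divide the sterol arm (top), the regulators and the fatty acid arm (bottom), and WT from KO. In the sterol rows KO 1 has the strongest red for most genes, WT 1 is also red in many, and *Tm7sf2* and *Dhcr7* are blue in all KO samples.

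None of the 5 regulators passed edgeR's quasi-likelihood test. An unadjusted p under 0.05 was found for 1 (*Stard4*), and for 4358 of the 12999 tested genes. The same regulator was the 1 that passed with DESeq2 (adjusted p = 0.00941), where 2483 genes passed in all. *Srebf2*, which encodes the SREBP of sterol synthesis, was at 553.7, 538.4 and 479.7 CPM in WT and 559.1, 574.0 and 531.6 CPM in KO, and *Scap*, the escort of SREBP precursors, at 82.1, 88.8 and 83.9 against 83.3, 83.8 and 90.0. Both had narrow intervals around 0, with log2 fold changes of 0.08 (95% interval -0.10 to 0.26) and 0.01 (-0.14 to 0.16). *Scap* shared 9.96% of its 50-base stretches with *5830462I19Rik* on the opposite strand. *Srebf1* was at 244.0, 256.0 and 209.0 CPM in WT and 149.9, 219.0 and 209.9 CPM in KO. KO replicate 1 was the lowest sample and the other KO samples lay inside the WT range (log2 fold change -0.29, adjusted p = 0.213). The counts do not separate the isoforms of *Srebf1*.

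*Insig1*, which retains SREBP precursors and is itself a target of SREBP, was at 415.5, 241.9 and 235.0 CPM in WT and 444.1, 385.6 and 331.8 CPM in KO. WT replicate 1 again stood inside the KO range (log2 fold change 0.38, adjusted p = 0.277), and without it the value was 0.70 (adjusted p = 0.0383). *Stard4*, a carrier of cholesterol between membranes, was at 130.9, 78.3 and 80.3 CPM in WT and 160.7, 152.5 and 131.3 CPM in KO. The groups did not overlap, by the margin between WT replicate 1 and KO replicate 3. The log2 fold change of 0.62 (SE 0.198) missed the threshold (adjusted p = 0.0743) and was 0.90 (adjusted p = 0.0189) without WT replicate 1.

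In the fatty acid arm, 4 of 12 log2 fold changes were above 0 and 8 below, with a median of -0.07 and a range from -0.73 to 0.33. By the test 1 gene fell and 0 rose, where over all tested genes 6.41% fell and 7.61% rose. The 1 gene that passed was *Fads1*, the front-end desaturase that completes arachidonic and eicosapentaenoic acid. It was at 188.8, 189.2 and 167.7 CPM in the WT samples and 97.0, 124.2 and 106.8 CPM in the KO samples. The groups were well apart, with the highest KO sample below the lowest WT sample. *Fads1* fell by 0.73 on the log2 scale (SE 0.102, adjusted p = 0.0101), to 0.601 of the WT level (95% interval 0.510 to 0.709). Without WT replicate 2 the log2 fold change was -0.71 and the adjusted p 0.0616, in a fit where 93 genes passed in all. In the other 5 fits that left out a sample it passed.

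*Fads2*, the desaturase earlier in the same route, was at 162.4, 156.0 and 151.5 CPM in WT and 131.7, 140.0 and 133.5 CPM in KO. The groups did not overlap, and the log2 fold change of -0.21 (SE 0.0603) had an adjusted p of 0.0546, just outside the threshold. *Elovl6*, which lengthens the product of fatty acid synthase, was at 235.2, 226.7 and 235.3 CPM in WT and 213.0, 194.4 and 164.0 CPM in KO. All KO samples of *Elovl6* were below WT (log2 fold change -0.29, adjusted p = 0.0866), and the adjusted p was 0.0405 without KO replicate 1, at a log2 fold change of -0.37.

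The desaturases that make monounsaturated fatty acids had values on both sides of 0. *Scd2* was the member with the highest level per length, at a mean of 857 TPM ± 67.2 in WT and 694 TPM ± 59.3 in KO (SD, n = 3). In CPM it was at 2370.4, 2139.7 and 1915.6 in WT and 1821.1, 1947.8 and 1579.3 in KO, with KO replicate 2 inside the WT range (log2 fold change -0.26, adjusted p = 0.147). Its paralog *Scd1* was far lower, at 29.3 TPM ± 3.0 in WT and 35.6 TPM ± 7.2 in KO (SD, n = 3). *Scd1* was at 64.1, 59.6 and 70.7 CPM in WT and 100.1, 83.5 and 60.4 CPM in KO, so that KO replicate 3 lay at the WT level (log2 fold change 0.33, adjusted p = 0.222). Without KO replicate 3 it was 0.50 (adjusted p = 0.0411).

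None of the enzymes that supply and join acetyl units passed the test. *Fasn*, the fatty acid synthase, was at 468.3, 414.9 and 392.9 CPM in WT and 491.8, 519.2 and 442.0 CPM in KO (log2 fold change 0.19, 95% interval -0.03 to 0.41, adjusted p = 0.205). *Acly*, which makes acetyl-CoA from citrate, and *Acss2*, which makes it from acetate, had log2 fold changes of 0.02 (adjusted p = 0.909) and 0.16 (0.385). Their 95% intervals ran from -0.19 to 0.23 and from -0.12 to 0.44. *Acaca*, the carboxylase of synthesis, was at 101.8 to 117.0 CPM in WT and 99.6 to 109.0 CPM in KO (log2 fold change -0.07, 95% interval -0.24 to 0.10). These ranges overlapped throughout. *Acaca* shared 29.2% of its stretches with *Gm5182*.

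*Acacb*, the carboxylase tied to the control of fatty acid oxidation, was the lowest member at 0.76 to 2.24 CPM in all samples, and its interval from -1.05 to 1.00 on the log2 scale leaves differences of nearly 2-fold undetectable at this depth. *Elovl1*, an elongase of very long saturated chains, and *Elovl5*, an elongase of polyunsaturated chains, had log2 fold changes of -0.09 (adjusted p = 0.410) and -0.07 (0.609).

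**Figure D3:**
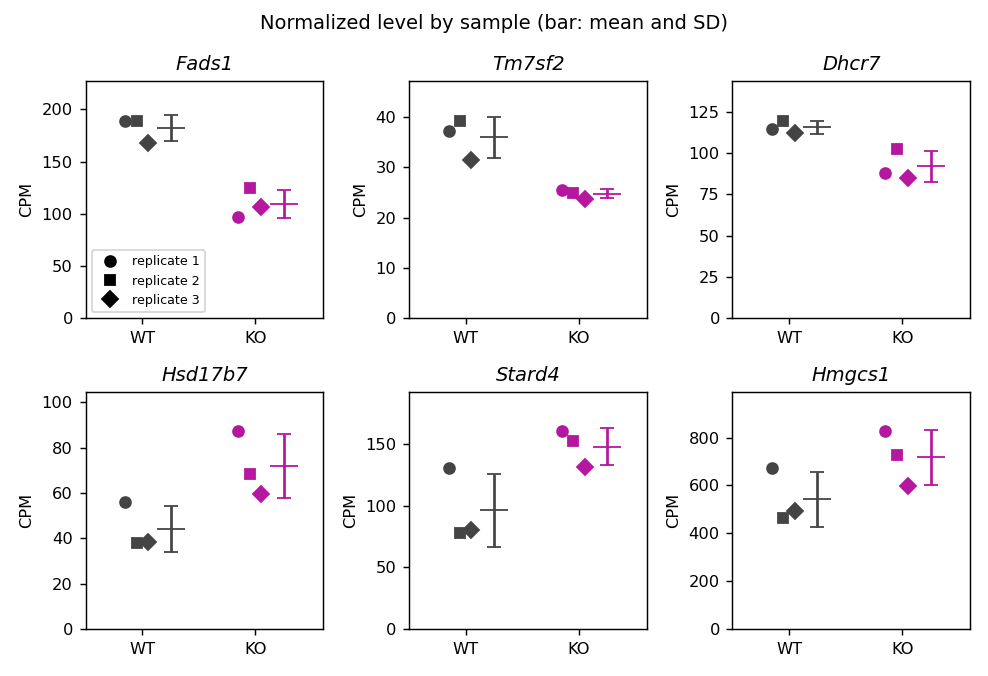
CPM in each sample for 6 of the genes, with the mean and SD of each group (n = 3) beside the points and the marker shape giving the replicate number. *Fads1*, *Tm7sf2* and *Dhcr7* are lower in all KO samples, *Hsd17b7* and *Stard4* are higher in all KO samples, and *Hmgcs1* overlaps through WT replicate 1.

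Set side by side, the arms had medians of 0.22 and -0.07, a difference of 0.289 on the log2 scale. No test was made of it, since the arms were drawn up with results known. The mean log2 CPM of the sterol arm, relative to its WT mean, was 0.19, -0.07 and -0.11 in the WT samples and 0.39, 0.21 and -0.07 in the KO samples. The sterol values overlapped, with KO replicate 3 at the level of WT replicate 2. For the fatty acid arm it was 0.03, -0.05 and 0.02 in WT and -0.08, -0.07 and -0.15 in KO, so that the KO values lay below the WT values by a small margin. That mean gives each of the 12 genes equal weight, and *Fads1*, at -0.73, had the largest fold change among them. Whether the fatty acid values would stay apart without *Fads1* was not tested. The sterol mean minus the fatty acid mean was -0.11, -0.29 and -0.40 in WT and 0.21, 0.01 and -0.18 in KO. These also overlapped, as KO replicate 3 lay below WT replicate 1.

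KO replicate 1 and WT replicate 1 both bore on the contrast. Without KO replicate 1 the sterol median was 0.10, with 10 of 17 genes above 0, and without WT replicate 1 it was 0.32. The difference between the arms' medians was then 0.188 and 0.409, and it was 0.187 without WT replicate 3. In summed TPM, the sterol arm was at 2822, 2476 and 2479 in WT and 3229, 2893 and 2486 in KO, and the fatty acid arm at 1891, 1866 and 1796 in WT and 1593, 1692 and 1510 in KO. *Scd2* made up much of the latter sum, and *Fdps* was the most abundant sterol enzyme at 621 TPM ± 2.94 in WT and 656 TPM ± 114 in KO (SD, n = 3).

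**Figure D4:**
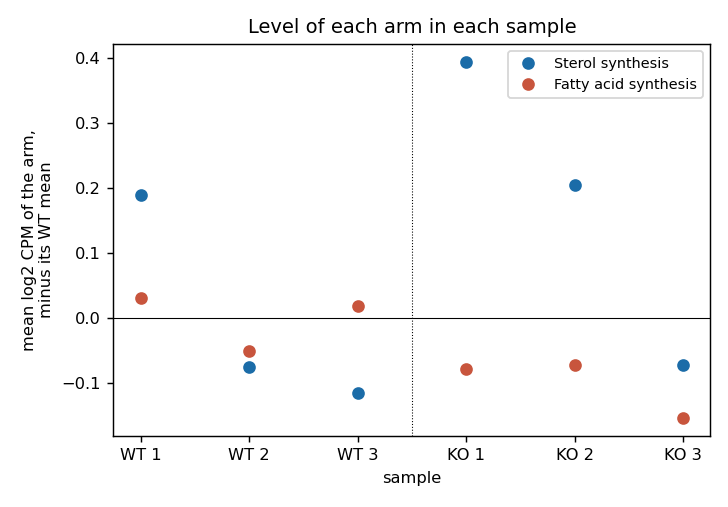
Mean log2 CPM of the sterol arm (blue) and of the fatty acid arm (red) in each sample, minus the mean of that arm over the WT samples. The sterol points run from -0.11 to 0.39 and overlap between WT and KO. The fatty acid points of KO, from -0.15 to -0.07, lie below those of WT, in a mean that includes *Fads1*.

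Other genes of the pathways were taken from lists written for this purpose. Of 10 tested genes of sterol synthesis outside the 34, none passed with edgeR's quasi-likelihood test at an adjusted p of at most 0.05. An unadjusted p under 0.05 was found for 5, and for 4358 of the 12999 tested genes. With DESeq2, 3 passed, where 2483 genes passed in all, and with limma on log2 TPM 0 passed.

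Of 22 other fatty acid genes tested, 4 rose and 3 fell, and 3 of the 7 differed at least 2-fold, against 7.61%, 6.41% and 3.23% of all tested genes. *Elovl4*, the elongase of ultra-long chains, was at 0.83, 1.06 and 1.00 CPM in WT and 8.39, 3.66 and 5.31 CPM in KO (log2 fold change 2.58, adjusted p = 0.00916). It went from a level near 1 CPM to several times that in each KO sample. *Mlxipl*, which encodes the carbohydrate-responsive factor ChREBP, rose by 1.73 on the log2 scale (adjusted p = 0.0123) at 0.53 to 0.86 CPM in WT and 2.00 to 2.38 CPM in KO. *Acsl4*, an acyl-CoA synthetase that prefers arachidonic acid, was at 25.9, 24.0 and 30.5 CPM in WT and 56.0, 43.6 and 42.6 CPM in KO (log2 fold change 0.82, adjusted p = 0.0145). *Fads3*, a relative of *Fads1* and *Fads2* named after its values were seen, was at 7.87, 5.82 and 8.93 CPM in WT and 17.45, 15.96 and 13.00 CPM in KO (log2 fold change 1.04, adjusted p = 0.0166). The 3 that fell were also named after their values were seen. *Hacd2*, a dehydratase of the elongation cycle, was at 158.8, 168.2 and 153.3 CPM in WT and 96.4, 123.3 and 122.3 CPM in KO (log2 fold change -0.49, adjusted p = 0.0256). *Tecr*, the reductase that closes that cycle, and *Oxsm*, a mitochondrial synthase, both had a log2 fold change of -0.35 (adjusted p = 0.0374 and 0.0426). The call of *Hacd2* was lost when any WT sample was left out, that of *Tecr* in each such fit except the one without KO replicate 2, and that of *Oxsm* in all 6. Within the *Fads* family *Fads3* was therefore higher and *Fads1* lower in KO, while *Fads2*, at -0.21, did not pass.

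Of 18 tested genes of SREBP control, sterol uptake and efflux, 1 rose and 1 fell, against 7.61% and 6.41% of all tested genes. *Insig2*, the second SREBP retention protein, was at 55.3, 53.8 and 53.7 CPM in WT and 76.8, 70.3 and 70.0 CPM in KO (log2 fold change 0.41, adjusted p = 0.0129). *Mylip*, the ligase that marks the LDL receptor for breakdown and a target of the sterol sensor LXR, was at 134.9, 145.5 and 153.6 CPM in WT and 78.3, 93.6 and 100.02 CPM in KO (log2 fold change -0.67, adjusted p = 0.0113). Both were separated between the groups in every sample, as were 39.9% of all tested genes. Without WT replicate 2 no gene of this list or of the other fatty acid list passed, with adjusted p values of 0.0570 to 0.0731 for *Elovl4*, *Mlxipl*, *Acsl4*, *Mylip* and *Insig2*.

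Markers of other cells were read beside these results. *Krt12*, the keratin of corneal epithelium, was at 30888 to 39231 CPM over all samples, and the summed level of 11 corneal epithelial markers was 108114 to 116025 TPM in WT and 97962 to 117963 TPM in KO. Of these, 1 passed the test, where 14.0% of all tested genes passed. It was *Krt14*, a keratin of basal cells, at 380 to 454 CPM in WT and 1733 to 4554 CPM in KO (log2 fold change 2.81, adjusted p = 0.00769). This call was also lost without WT replicate 2. The keratocyte markers summed to 3.81 to 55.1 TPM in WT, with the highest value in WT replicate 3, and to 3.69 to 8.05 TPM in KO. The meibocyte and sebocyte markers, from lipid-rich cells, summed to 5.35 to 6.96 TPM in WT and 8.24 to 12.7 TPM in KO. The adipocyte markers summed to 0.15 to 0.96 TPM in WT and 1.69 to 18.95 TPM in KO, highest in KO replicate 1. In that sample *Fabp4* alone was at 18.63 TPM, and every other listed adipocyte marker was at 0.17 TPM or less. Of the 11 meibocyte and sebocyte markers 3 were not listed. The 3 tested, *Far2*, *Cidea* and *Soat1*, had fold changes above 0 and made up most of that list's sum. *Mc5r* was at 0 in all WT samples and at 2, 2 and 1 counts in KO. *Awat2* of the same list went the other way, at 9, 9 and 5.06 counts in WT and 5, 4 and 5 in KO. *Adipoq* of the adipocyte list was at 0 in all WT samples and at 1, 3 and 0 counts in KO. In that list *Lep* was at 3, 0 and 4 counts in WT and 0 in all KO samples. *Plin1*, on both lists, was at 0, 1 and 0 counts in WT and 0 in all KO samples.

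Conjunctival markers summed to 1391 to 2324 TPM in WT and 2180 to 4677 TPM in KO, and immune markers to 56.5 to 68.9 TPM in WT and 57.2 to 532 TPM in KO, both highest in KO replicate 1. In that sample *S100a9* was at 373 TPM and *S100a8* at 78.8 TPM, and these genes made up most of the immune sum. The keratins *Krt4*, *Krt13* and *Krt19* made up most of the conjunctival sum in every sample. Of the same list *Agr2* was at a mean of 11.4 TPM in WT and 8.86 TPM in KO. *Muc5b*, *Tff1*, *Tff3* and *Spdef* were at 0.53 TPM or less in every sample, and *Muc5ac* was not listed. Of the 4 tested immune markers, 1 fold change was above 0 and 3 were below. Endothelial markers were at most 0.32 TPM. With edgeR's quasi-likelihood test none of the tested keratocyte (4), conjunctival (4), immune (4) or meibocyte and sebocyte (3) markers passed. An unadjusted p under 0.05 was found for 3 conjunctival and 2 meibocyte and sebocyte markers, and for 4358 of the 12999 tested genes. With DESeq2 1 conjunctival marker (*Krt4*) and 1 adipocyte marker (*Fabp4*) passed, where 2483 genes passed in all. In the edgeR fits that left out 1 sample, *Krt4*, *Krt19* and the immune marker *S100a9* passed without KO replicate 2, and *Fabp4* and *Soat1*, of the meibocyte and sebocyte list, without KO replicate 3. Of 16 immediate early genes, 14 rose and none fell, against 7.61% and 6.41% of all tested genes. Their summed level was 1333 to 1684 TPM in WT and 3330 to 4004 TPM in KO. The part of these cells and transcripts in the lipid gene values was not tested.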

How the data were processed

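Corneal epithelial cells of 6 mouse samples, 3 labelled WT and 3 labelled KO, were profiled by bulk RNA-seq. Groups and replicate numbers came from the labels. The study counts 3 biological replicates per group. The labels name a TruSeq kit and the study rRNA depletion with DNA nanoball sequencing, and the strand setting of counting was not given in the sources used here. The authors aligned reads with Bowtie2 2.2.5 and quantified them with RSEM 1.2.12, and the labels list build mm9. The deposited expected counts are RSEM estimates without depth scaling (39.4% of those above 0 were not whole), and the deposited TPM values are scaled by RSEM for length and depth. No column of another sample was used (0).

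Rounded expected counts went into the quasi-likelihood test of edgeR 4.0.16 in R 4.3.3, after filterByExpr and with TMM factors of 0.960 to 1.03, with Benjamini-Hochberg adjustment over 12999 of 17784 genes. The thresholds were an adjusted p of 0.05 and, for calls, a 2-fold change. An exact permutation test of 3 against 3 samples cannot go below p = 0.1 and was not used. The fit was tested on simulated data. Alternatives were RLE and upper-quartile factors, DESeq2 1.42.0, no filter, a minimum of 10 counts, limma 3.58.1 on log2(TPM + 1) or log2(TPM + 0.1) where the mean TPM reached 1, a replicate block, and each sample left out. Intervals cover the spread among these samples, and the count floor covers counting error only.

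The 34 genes and all lists were chosen with earlier results of these data known. All 34 were named whatever their values. From each other pathway list at most 3 passing genes with the smallest p were named, and genes named outside this rule are marked as such. Some genes of these lists are not reported here. Shared sequence was counted as 50-base stretches of GENCODE M21 transcripts. Promoter windows came from RefSeq. FPKM and group average columns were not used here.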

Additional observations from a re-analysis of the deposited data

How the results depend on the processing

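The count of the 34 genes that passed was 4, and it was 8 with DESeq2 (adding *Acat2*, *Stard4*, *Elovl6* and *Fads2*) and 8 with the replicate block (adding *Hmgcs1*, *Mvd*, *Msmo1* and *Stard4*). With the other scalings, filters and limma it was 3 to 6. When 1 sample was left out it ranged from 0 (without WT replicate 2) to 5. Over all genes 1822 passed, and 2483 with DESeq2. For the block and most fits that left out a sample, the count of all passing genes is not given here. The counts of the 34 in those fits are therefore not read as particular to these genes. The count of all genes called at 2-fold was 420, and it was 234 with limma on log2(TPM + 1), 390 with the replicate block, and 59 (without WT replicate 2) to 430 when 1 sample was left out. The cause was not tested. The difference between the arms' medians kept its sign under all 14 alternatives, at 0.187 to 0.426 when 1 sample was left out. The median of the fatty acid arm was -0.12 with limma on log2(TPM + 0.1).

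Over all tested genes the deviations of same-numbered samples correlated at 0.10, -0.04 and 0.01, and not every sample correlated best with its own number. With 3 samples per group these values cannot decide whether same-numbered samples were paired. The mean of the sterol arm fell from replicate 1 to replicate 3 in both groups. The block is given here only as an alternative.

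Some small fold changes turned sign. *Sqle*, *Scap* and *Acly* were at -0.0118, -0.0255 and -0.0270 with limma on log2(TPM + 1) and at -0.0118, -0.0260 and -0.0271 with log2(TPM + 0.1). With 1 sample left out, *Sqle* ranged from -0.0518 to 0.14, *Scap* ranged from -0.0233 to 0.0444, *Acly* ranged from -0.0465 to 0.10, *Acacb* ranged from -0.58 to 0.27, *Fdps* ranged from -0.0401 to 0.28, *Nsdhl* ranged from -0.0874 to 0.28 and *Ebp* ranged from -0.13 to 0.18. *Hsd17b7* lost its call without a filter on low counts (adjusted p = 0.0507).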
